A study of Mus musculus with 4 samples.

Results

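Open chromatin was examined at 10 granulocyte genes in mouse fetal liver: S100a8, S100a9, Camp, Ltf, Ngp, Mpo, Elane, Cebpe, Cebpa and Csf3r. ATAC-seq uses a transposase that cuts accessible DNA, so that a peak marks a stretch of open chromatin and its summit the position with the most fragments. The deposited lists came from 4 libraries of embryonic day 14.5 livers, made from about 50000 cells each by the Omni-ATAC protocol: 2 of wild-type (WT) and 2 of hemogen knockout (Hemgn KO) embryos. Hemogen, the product of Hemgn, is a nuclear factor found in blood progenitors. The kind of KO allele, the strain and the number of embryos per library are not given in the labels. A peak was assigned to a gene when its summit lay in the gene body, or within 100 kb with that gene's boundary as the nearest of 21770 protein-coding genes. The peaks of the 4 lists were merged into 55290 regions, and 20 of these belonged to 8 of the 10 genes, while Ngp and Elane had none. The genes were chosen by measured values, the peaks at S100a8 and Camp that were called in WT and not in KO, so the presence, position and fold of their peaks are given as a description, with no test.

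Neutrophil granulocytes mature from myeloid progenitors, and the fetal liver makes them beside its main product, red cells. The transcription factor C/EBP alpha opens the granulocyte programme, primary granule enzymes such as myeloperoxidase and neutrophil elastase are made at the promyelocyte stage, and C/EBP epsilon drives the later secondary granule genes. The calprotectin subunits S100A8 and S100A9 fill the cytoplasm of mature neutrophils, and the receptor encoded by Csf3r receives granulocyte colony-stimulating factor.

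Promoter windows of 300 bases, 250 before and 50 after the start site, are shown for 5 of the genes because they span what the peaks did: a peak in WT alone (S100a8 and Camp), in 3 libraries (Ltf), in no library (S100a9) and in all 4 (Cebpa). They are RefSeq sequences of the assembly GRCm38.p6, read 5′ to 3′ on the gene's strand, and capitals mark the letters of 4 motifs searched on both strands: TTGCNNAA for C/EBP factors, GAGGAA for PU.1, TGTGGT for RUNX factors and AGATAA for GATA factors.
S100a8 (chr3:90668821-90669120, + strand): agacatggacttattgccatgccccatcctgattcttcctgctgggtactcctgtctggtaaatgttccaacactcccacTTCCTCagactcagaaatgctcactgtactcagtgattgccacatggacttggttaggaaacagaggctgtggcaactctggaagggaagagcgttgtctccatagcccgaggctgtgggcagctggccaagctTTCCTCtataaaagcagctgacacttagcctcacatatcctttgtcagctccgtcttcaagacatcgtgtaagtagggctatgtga
Camp (chr9:109849407-109849706, - strand): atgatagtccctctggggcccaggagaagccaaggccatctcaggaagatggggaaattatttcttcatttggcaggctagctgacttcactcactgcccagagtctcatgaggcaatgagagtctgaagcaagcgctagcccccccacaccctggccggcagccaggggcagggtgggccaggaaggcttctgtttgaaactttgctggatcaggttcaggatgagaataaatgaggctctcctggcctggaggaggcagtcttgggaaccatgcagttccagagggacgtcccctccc
Ltf (chr9:111019042-111019341, + strand): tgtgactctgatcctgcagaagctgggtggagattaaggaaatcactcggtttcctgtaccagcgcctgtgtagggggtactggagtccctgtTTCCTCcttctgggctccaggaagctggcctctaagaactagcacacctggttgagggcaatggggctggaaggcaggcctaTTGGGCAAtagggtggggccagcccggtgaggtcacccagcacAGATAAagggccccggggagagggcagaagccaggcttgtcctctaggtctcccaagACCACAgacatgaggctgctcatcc
S100a9 (chr3:90695672-90695971, - strand): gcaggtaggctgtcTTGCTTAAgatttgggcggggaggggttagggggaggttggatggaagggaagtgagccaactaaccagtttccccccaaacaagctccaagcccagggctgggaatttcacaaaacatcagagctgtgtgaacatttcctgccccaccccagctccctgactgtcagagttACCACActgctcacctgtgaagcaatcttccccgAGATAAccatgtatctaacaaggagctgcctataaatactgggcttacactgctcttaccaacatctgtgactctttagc
Cebpa (chr7:35119043-35119342, + strand): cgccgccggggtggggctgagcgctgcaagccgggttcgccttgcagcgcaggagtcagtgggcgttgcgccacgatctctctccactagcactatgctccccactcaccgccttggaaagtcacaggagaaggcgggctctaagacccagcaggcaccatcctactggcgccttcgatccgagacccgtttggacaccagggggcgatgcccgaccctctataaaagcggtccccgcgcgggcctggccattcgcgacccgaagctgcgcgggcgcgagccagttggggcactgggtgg

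The RefSeq table held a window for 9 of the 10 genes, Cebpe being the other one. The PU.1 letters were in 5 of the 9 windows (S100a8, Csf3r, Ltf, Elane and Mpo), against 28.3% of all 32851 promoter windows of this length. S100a8 and Mpo had 2 such matches each, and the S100a8 matches began 170 and 36 bases before the start site. The C/EBP letters were in 3 windows (S100a9, Ngp and Ltf), against 10.8% of all windows. RUNX letters and GATA letters were each in 2 windows, those of S100a9 and Ltf, against 16.8% and 11.2% of all windows. Camp and Cebpa held none of the 4 motifs. No match overlapped a match of another motif in these windows, and a match is a description of letters, not a site of binding.

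The lists held 47858 and 34181 peaks for WT replicates 1 and 2 and 35426 and 43018 for Hemgn KO replicates 1 and 2, so that depth varied within each genotype. The fold deposited for a peak is the authors' ratio of summit fragments over local background, each raised by 1, and fold and p together return both terms, the fragments as a whole number. The counted units are called fragments here, but whether they are read pairs or single reads was not given. The Poisson intervals below treat them as independent counts. The most frequent background, which serves as a measure of depth, was 5.67, 2.29, 2.49 and 3.8 fragments in the same order. Dividing a summit's fragments by this library background gives a depth-scaled height, whose median over 19997 regions found in all 4 libraries lay between 13.25 and 13.93 in every library. A further 7476 regions found in all 4 libraries were left out, since peaks at a −log10 p of 300 or more were not solved. These medians thus do not cover the strongest peaks. The weakest peak called at the library background had a height of 2.65, 3.93, 3.61 and 3.16. Of 15 erythroid genes, 12 (80.0%) had a peak within 1 kb of a gene boundary in every library, and of 14 hepatocyte genes 6 (42.9%). The share of all protein-coding genes was 55.4%, above the hepatocyte share. Both lists were chosen with earlier results of these data known, so they are no independent check of the tissue label.

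A minority of the regions at the granulocyte genes were shared by all libraries. Of their 20 regions, 6 (30%) were present in all 4 libraries, against 49.7% of all regions, 2 were present in both WT libraries and no KO library, against 2.2% of all regions, and 0 in both KO libraries and no WT library, against 1.41%. Lists of other cell types differed among themselves, and some resembled the granulocyte genes. Of 65 regions at hepatocyte genes, 27.7% were in all 4 libraries, 7 in the WT pair alone and 0 in the KO pair alone. Of 96 at erythroid genes, these values were 51.0%, 5 and 2. Of 29 regions at macrophage genes, 24.1% were in all 4 libraries, 1 in the WT pair alone and 0 in the KO pair alone. Of 24 at B lymphoid genes, the values were 58.3%, 0 and 2. At the granulocyte genes, the other 12 regions were found in other combinations, 7 of them in a single library. By library, 14 of the 20 regions had a peak in WT replicate 1, 8 in WT replicate 2, 12 in Hemgn KO replicate 1 and 15 in Hemgn KO replicate 2. WT replicate 2, the library with the lowest background, lacked 4 regions that the other 3 libraries shared, and without it 10 regions were present in all remaining libraries. Regions found in every remaining KO library and no remaining WT library numbered 4 when WT replicate 1 was left out, 4 when Hemgn KO replicate 1 was, and 2 when Hemgn KO replicate 2 was. With WT replicate 1 left out, WT rested on WT replicate 2 alone, the library with the lowest background. The share of all regions with this call under each omission is not given here, so these counts have no comparison. For a peak missing from a list, fewer granulocytes, less open chromatin per granulocyte and a height under the calling limit cannot be told apart in these whole-liver samples.

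Peaks within 1 kb of a gene boundary were found at 1 of the 10 genes in all 4 libraries (Cebpa), against 55.4% of all genes, and at 4 genes in none (S100a9, Ngp, Elane and Csf3r), against 36.6%. S100a8 and Camp had one in both WT libraries and neither KO library, a pattern seen at 0.303% of all genes, and 0 of the 10 had the opposite pattern, seen at 0.294%. These boundary peaks had lower median ranks than those of all genes. The median within-list percentile of fold at the genes with a boundary peak was 36.5 and 23.9 in WT and 29.0 and 38.2 in KO, against 83.8, 79.5, 80.2 and 82.8 at all genes with one. Low medians were not particular to these genes. In the same order, they were 39.6, 27.1, 33.9 and 29.8 at hepatocyte genes and 55.4, 33.8, 42.4 and 46.2 at erythroid genes. The farthest boundary peak inside the limit was at Cebpe (up to 792 bp) and the nearest outside it at Csf3r (from 1231 bp). With a limit of 2 kb, 2 genes had a boundary peak in all 4 libraries. Without WT replicate 2, 3 genes did. Genes with one in every remaining KO library and no remaining WT library numbered 2 when WT replicate 1 was left out and 1 when Hemgn KO replicate 1 was. The share of all genes with this call under each omission is not given here.

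**Figure D1:**
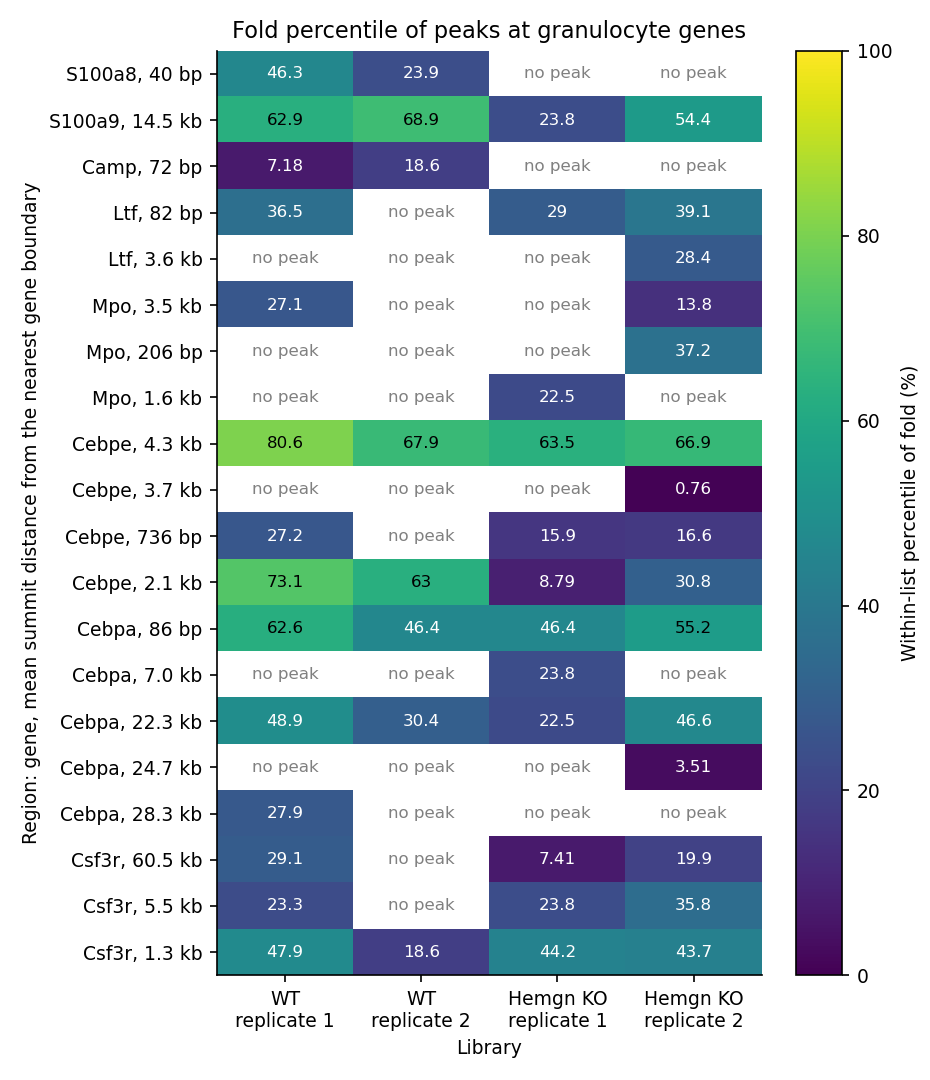
Within-list percentile of the authors' fold for the strongest peak of each region (rows: gene and mean summit distance from the nearest gene boundary) in each of the 4 libraries (columns), with white cells where the library had no peak. S100a8 and Camp have peaks in the WT columns only, and the Cebpe region at 2.1 kb stands at 73.1 and 63.0 in WT and 8.79 and 30.8 in Hemgn KO.

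S100a8 encodes a calcium-binding subunit of calprotectin, the abundant antimicrobial protein of the neutrophil cytoplasm. Its only region (chromosome 3, 90668876 to 90669263) lay over the gene's start, with summits 16 and 64 bp inside the gene in WT replicates 1 and 2. The summit held 32 fragments in WT replicate 1 and 13 in WT replicate 2, and neither KO library had a peak. Scaled to the library background, these were heights of 5.64 (exact Poisson 95% interval 3.86 to 7.97) and 5.68 (3.02 to 9.71), intervals that cover counting error only. Both WT heights stood above the lowest heights called in Hemgn KO replicates 1 and 2, 3.61 and 3.16, but the lower bound of the interval in WT replicate 2 lay below them. The fold percentiles were 46.3 and 23.9. In lists cut to the 34181 peaks of highest fold, they were 24.8 and 23.9, and the KO lists again held none.

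The WT peaks of S100a8 covered 245 and 115 bases of the promoter window printed above, and the KO peaks covered 0. Whether the calling limit had a part in the missing KO peaks was not tested. The nearest summit to the S100a8 start site in the KO libraries was 41.1 and 41.2 kb away, in the region assigned to S100a9.

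Camp encodes cathelicidin, an antimicrobial peptide precursor stored in secondary granules. Its only region (chromosome 9, 109849074 to 109849689) also lay over the gene's start, with the summit 73 bp before the start site in WT replicate 1 and 71 bp after it in WT replicate 2. The summit held 17 and 12 fragments, which are heights of 3.0 (exact Poisson 95% interval 1.75 to 4.8) and 5.24 (2.71 to 9.15), and neither KO library had a peak. The height in WT replicate 1 lay below the lowest heights called at the library background in Hemgn KO replicates 1 and 2, 3.61 and 3.16. The height in WT replicate 2 lay above both, but the lower bound of its interval lay below them. The peaks covered 206 and 199 bases of the printed window in WT and 0 in KO. The fold percentiles were 7.18 and 18.6. The pattern was lost in shortened lists: with lists of equal length by fold or by q, 1 WT library kept the peak, and at a fold of at least 4 no library did.

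The share of WT regions without a KO peak was higher in the low classes of rank than in the high ones. Of 2704 regions found in both WT libraries whose lower WT percentile was between 0 and 10, as at Camp, 13.8% had no KO peak. Between 20 and 30, as at S100a8, the share was 7.49% of 3045 regions. The share fell short of 1% in every class above 50, which is shown in the plot of regions by rank.

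**Figure D2:**
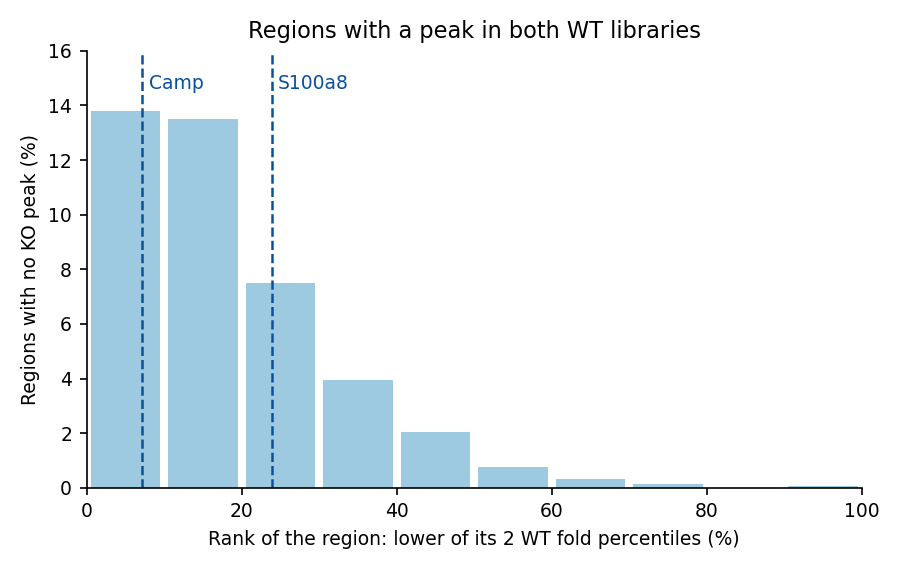
Share of regions without any KO peak (y axis, %) among regions with a peak in both WT libraries, in classes of 10 by the lower of the 2 WT fold percentiles (x axis). The dashed lines mark Camp at 7.18 and S100a8 at 23.9, in classes where the share is 13.8% and 7.49%.

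S100a9 encodes the other calprotectin subunit and had no peak at its start site in any library. Its region (chromosome 3, 90709749 to 90710384) lay outside the gene, with summits 14.4 to 14.5 kb before the start site in all 4 libraries. The summit held 46 and 29 fragments in WT and 13 and 27 in KO, or heights of 8.11 and 12.66 in WT and 5.22 and 7.11 in KO. Both WT libraries were higher than both KO libraries, the means being 10.39 ± 3.22 for WT and 6.16 ± 1.33 for KO (SD, n = 2 each), a 1.69-fold difference. The exact Poisson 95% intervals of WT replicate 1 (5.94 to 10.82) and Hemgn KO replicate 2 (4.68 to 10.34) overlapped.

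The S100a8 and S100a9 genes sit in a cluster of S100 genes on the same chromosome, and the other S100 genes were listed with earlier results of these data known. Of these 12 genes, 6 had a boundary peak in every library, a share near the 55.4% of all genes, and 0 had one in a single genotype's pair of libraries, where 0.303% (WT) and 0.294% (KO) of all genes did. S100a1 and S100a13, among the 6, had the same percentile in each library, so they are not 2 separate observations.

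Ltf encodes lactoferrin, the iron-binding protein of secondary granules, and Ngp encodes neutrophilic granule protein of the same granules. The start-site region of Ltf (chromosome 9, 111018859 to 111019450) had a peak in WT replicate 1 and both KO libraries, with 27, 14 and 21 fragments and heights of 4.76, 5.62 and 5.53. WT replicate 2 had no peak there, and the lowest height called at its background was 3.93. The peaks covered 300, 260 and 300 bases of the printed Ltf window in WT replicate 1 and Hemgn KO replicates 1 and 2. Both KO libraries thus had a peak at the start of Ltf. A second Ltf region, 3.59 kb beyond the gene, was found in Hemgn KO replicate 2 alone. Ngp had no region, and the nearest summit to its start site was 11.7 kb away in every library, assigned to the phosphatase gene Ptpn23.

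Mpo encodes myeloperoxidase and Elane neutrophil elastase, enzymes of the primary granules. No Mpo region was shared by more than 2 libraries. A region 3.5 kb before the Mpo start site was found in WT replicate 1 and Hemgn KO replicate 2, the libraries with the highest backgrounds, with heights of 4.59 and 4.21. A region 206 bp before the start site was found in Hemgn KO replicate 2 alone (26 fragments, height 6.84), and a region inside the gene, 1.63 kb from its far end, in Hemgn KO replicate 1 alone (17 fragments, height 6.83). Elane had no region of its own, and the nearest summit to its start site, 2.42 to 2.43 kb away in all 4 libraries, was assigned to its neighbour Prtn3, which encodes proteinase 3 of the same granules.

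Cebpe encodes C/EBP epsilon and had 4 regions, none of which had its summit inside the gene. In the region about 2.1 kb from the gene's boundary (chromosome 14, 54714036 to 54715170), the summit held 126 and 54 fragments in WT and 16 and 31 in KO. Scaled to the library background, the heights were 22.22 (exact Poisson 95% interval 18.51 to 26.46) and 23.58 (17.71 to 30.77) in WT and 6.43 (3.67 to 10.43) and 8.16 (5.54 to 11.58) in KO. The WT intervals and the KO intervals did not overlap. The deposited fold, over local background, was 9.26 and 8.07 in WT and 3.22 and 4.13 in KO. This is a smaller difference than by height. The local background was 12.71 and 5.81 fragments in WT and 4.28 and 6.75 in KO. Mean heights were 22.9 ± 0.96 for WT and 7.29 ± 1.22 for KO (SD, n = 2 each), a 3.14-fold difference, where the median WT over KO ratio of all 19997 regions was 1.01. The lowest WT height was over 2 times the highest KO height in 0.065% of these regions, and the reverse held in 0.065%.

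This Cebpe region stood at fold percentiles 73.1 and 63.0 in WT, against 8.79 and 30.8 in KO, a gap of 32.2 points between the lower WT and the higher KO value. Gaps over 30 points in this direction were found at 0.0255% of the 27473 regions present in all 4 libraries. With every list cut to 34181 peaks by fold, its WT percentiles were 62.3 and 63.0 and its KO percentiles 5.5 and 12.9, where 0.052% of regions had such a gap. The peak was 1095 and 929 bp wide in WT and 1133 bp wide in Hemgn KO replicate 2, while Hemgn KO replicate 1 had 2 separate peaks in the region, the stronger one 247 bp wide. The limits of 2 times and 30 points were set after these values were seen.

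**Figure D3:**
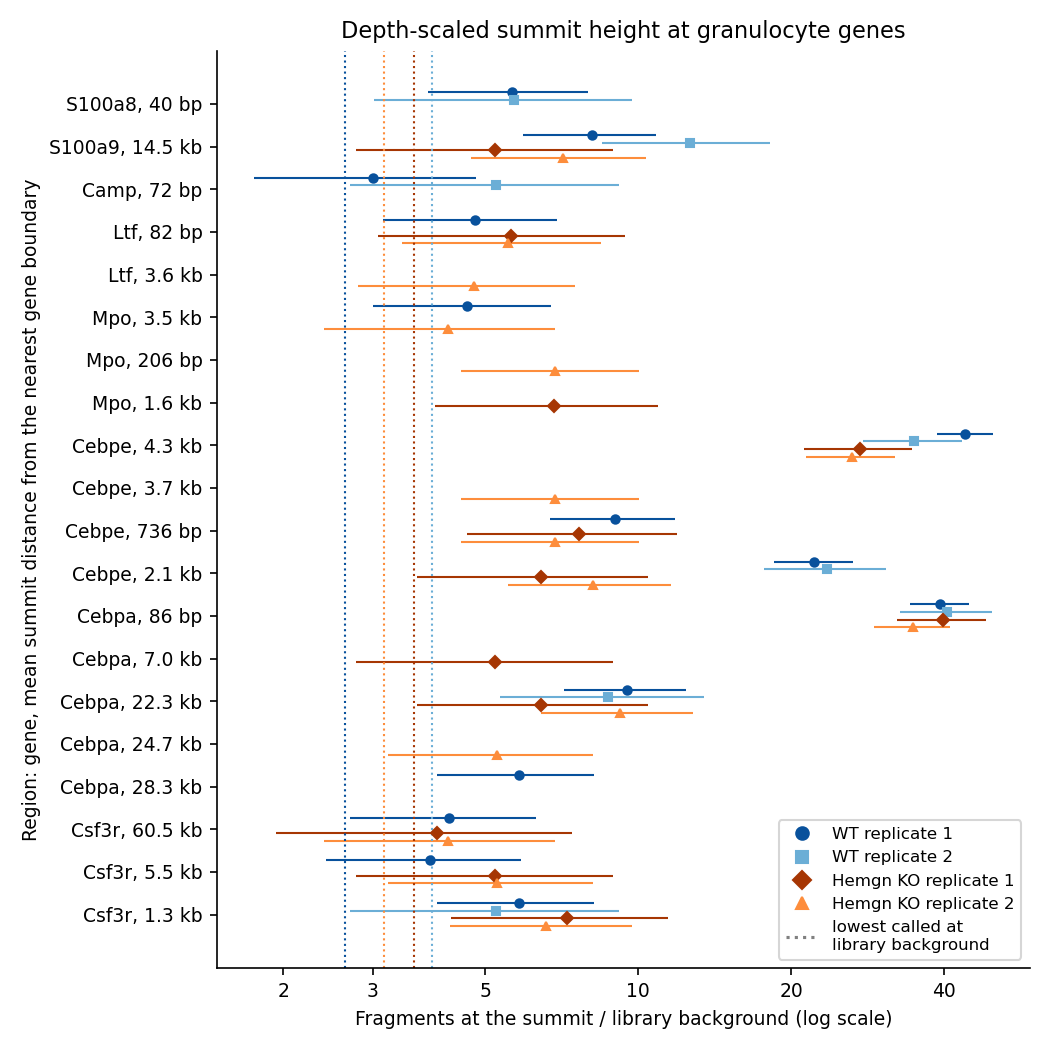
Fragments at the summit divided by the library background (x axis, log scale) for each region (rows) and library (symbols and colours), with exact Poisson 95% intervals as bars and dotted lines at the lowest height called at the library background. The Cebpe region at 2.1 kb has WT values of 22.22 and 23.58 apart from KO values of 6.43 and 8.16, while the 4 libraries overlap at the Cebpa start.

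On the other side of Cebpe, a region about 4.3 kb from the boundary (chromosome 14, 54705589 to 54706503) was among the strongest of the 20. It held 250 and 80 fragments in WT and 68 and 100 in KO, or heights of 44.09 and 34.93 in WT and 27.31 and 26.32 in KO. Both WT libraries were higher than both KO libraries, the means being 39.51 ± 6.48 and 26.81 ± 0.7 (SD, n = 2 each), a 1.47-fold difference. The exact Poisson 95% intervals of WT replicate 2 (27.7 to 43.48) and Hemgn KO replicate 1 (21.21 to 34.62) overlapped. By fold percentile, the lower WT value stood 1.0 point above the higher KO value. A Cebpe boundary region, with summits 680 to 792 bp outside the gene, had a peak in WT replicate 1 and both KO libraries with heights of 8.99, 7.63 and 6.84, and none in WT replicate 2. The fourth region, 3.71 kb from the boundary, was found in Hemgn KO replicate 2 alone at the 0.76 percentile.

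Cebpa encodes C/EBP alpha and was the only one of the 10 genes with a boundary peak in all 4 libraries. Its start-site region (chromosome 7, 35118009 to 35120526) covered the whole promoter window in every library, with summits 46 to 127 bp after the start site. The WT heights of 39.33 and 40.61 stood beside KO heights of 39.76 and 34.74, the means being 39.97 ± 0.91 and 37.25 ± 3.55 (SD, n = 2 each), and the genotypes overlapped. A region about 22 kb beyond the gene (chromosome 7, 35143652 to 35144597) was also present in all 4 libraries, with heights of 9.52 and 8.73 in WT and 6.43 and 9.21 in KO, which overlapped. The other 3 Cebpa regions were each found in 1 library, at 7.02 kb in Hemgn KO replicate 1, at 24.67 kb in Hemgn KO replicate 2 and at 28.29 kb in WT replicate 1.

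Csf3r encodes the receptor for granulocyte colony-stimulating factor. Its gene boundary in the table lies before the start site of the promoter table, so its strongest region (chromosome 4, 126024292 to 126025154) was no boundary peak although its summits lay 13 to 235 bp after that start site in all 4 libraries. WT replicates 1 and 2 reached heights of 5.82 and 5.24, and the KO replicates 7.23 and 6.58, the means being 5.53 ± 0.41 and 6.9 ± 0.46 (SD, n = 2 each). Both KO libraries were higher than both WT libraries, opposite to S100a9 and Cebpe, and the exact Poisson 95% intervals of WT replicate 1 (4.01 to 8.17) and Hemgn KO replicate 1 (4.28 to 11.42) overlapped. Regions 5.46 to 5.6 kb and 60.52 to 60.56 kb from the boundary had peaks in WT replicate 1 and both KO libraries and none in WT replicate 2. With start sites in place of gene boundaries, 2 of the 9 genes with a start site (Cebpa and Csf3r) had a peak within 1 kb in all 4 libraries, against 58.8% of all genes with one. S100a8 and Camp kept their pattern, seen at 0.229%, while 0 genes had the opposite one, seen at 0.246%, and 3 (S100a9, Ngp and Elane) had no start-site peak, against 35.0%.

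Over the 6 regions present in all 4 libraries, the WT heights were above the KO heights without overlap at 3 (the S100a9 region and the Cebpe regions at 2.1 and 4.3 kb), against 26.3% of the 19997 such regions with recovered fragments (7476 were not solved). The KO heights were above at 1 (Csf3r), against 20.7% of the same regions, and 2 Cebpa regions overlapped. By within-list percentile of fold, which lists of different lengths do not make comparable, the same 3 regions were higher in WT, against 13.6% of regions, and 0 in KO, against 9.98%. The count of regions with higher WT percentiles was 8 when WT replicate 2 was left out and 5 when Hemgn KO replicate 2 was. With every list cut to its 34181 peaks of highest fold, the start-site region of Cebpa also stood higher in WT (47.6 and 46.4 against 44.5 and 43.6) and the Csf3r region higher in KO (27.1 and 18.6 in WT, 42.2 and 29.1 in KO), where 20.1% and 19.0% of regions did so.

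**Figure D4:**
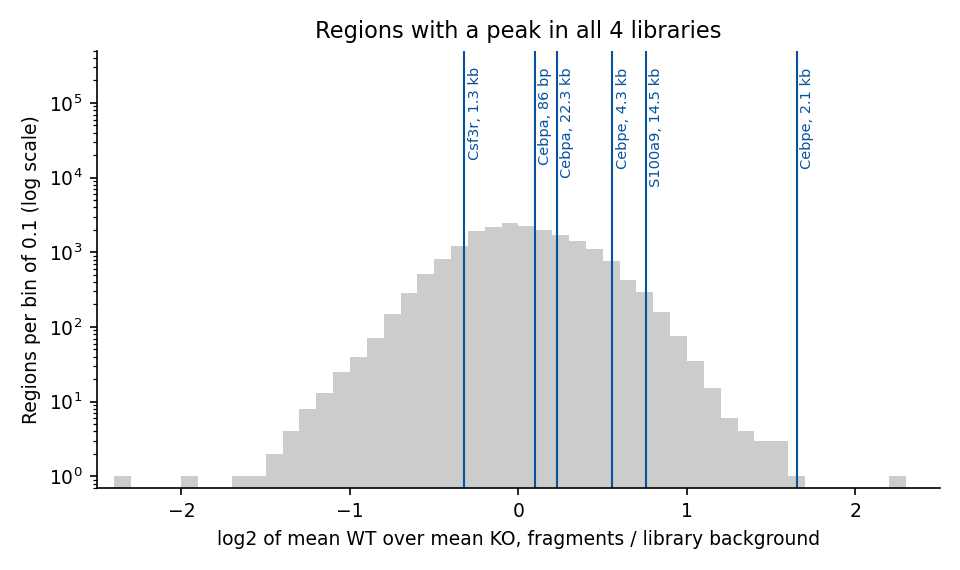
Number of regions (y axis, log scale) by the log2 ratio of mean WT over mean KO summit height (x axis) for 19997 regions with a peak in all 4 libraries and recovered fragments. Lines mark the 6 regions of the granulocyte genes, from Csf3r at a ratio of 0.8 to the Cebpe region at 2.1 kb at a ratio of 3.14, which lies in the right tail.

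A wider set of 52 other granulocyte genes, listed with earlier results of these data known and holding none of the 10, had no gene with a boundary peak in both libraries of one genotype only, against 0.303% (WT) and 0.294% (KO) of all genes. Boundary peaks in every library were found at 16 of these genes (30.8%), against 55.4% of all genes, and 30 (57.7%) had none anywhere, against 36.6%. By library, 22 and 16 had one in WT and 19 and 19 in KO, the means being 19.0 ± 4.24 and 19.0 ± 0.0 (SD, n = 2 each; exact two-sided permutation p = 1, smallest possible 0.33). With every list cut to 34181 peaks, the counts did not overlap: 16 and 16 in WT against 19 and 18 in KO by fold, and 16 and 16 against 18 and 18 by q, each at an exact permutation p of 0.33, the smallest possible. At a fold of at least 4, the counts overlapped, with 15 and 12 in WT against 13 and 17 in KO (exact permutation p = 0.667). They also overlapped with start sites in place of gene boundaries, at 12 and 9 in WT against 9 and 10 in KO. Counts of all protein-coding genes in the cut lists are not given here. All 7 transcription factor genes had a boundary peak in all 4 libraries, with the highest mean percentiles at Irf8 (75.8) and Cebpb (71.3); Irf8 directs monocytes and Cebpb emergency granulopoiesis. Among 15 granule protein genes, 3 did, with the highest mean percentiles at the protease gene Ctsc (78.4) and the ficolin gene Fcnb (46.5), and 9 had none in any library. Fcnb had no peak within 1 kb of its start site in any library. Of 6 oxidase genes, 2 had a boundary peak in all 4 libraries: Cyba (75.2), a subunit of the oxidase that makes superoxide, and the GTPase gene Rac2 (66.4).

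Of 15 receptor and adhesion genes, 4 had a boundary peak in all 4 libraries, the leukotriene B4 receptor gene Ltb4r1 having the highest mean percentile (56.5). Trem1 was next, with a mean of 28.0 over the 3 libraries that had a peak. Neither Ltb4r1 nor Trem1 had a peak within 1 kb of its start site in any library. None of the 9 eosinophil, basophil and mast cell genes had one in all 4 libraries, and the mast cell chymase gene Cma1 had one in WT replicate 1 alone. Of 172 regions at the 52 genes, 79 (45.9%) were in all 4 libraries, against 49.7% of all regions. In WT alone were 0, against 2.2%, and in both KO libraries alone 2, against 1.41%, a share near that of all regions. These 2, named after their values were seen, lay 20 kb from the integrin gene Itgam (percentiles 7.41 and 15.5) and 42.2 kb from Runx1 (31.8 and 9.83).

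Macrophage and B lymphoid genes served as markers of other blood cells. Both lists were chosen with earlier results of these data known, so the shares of all genes beside them are no independent check. Of 18 macrophage genes, 3 had a boundary peak in every library, against 55.4% of all genes, and 9 lacked one throughout, against 36.6% of all genes, and 0 had one in a single genotype's pair of libraries, against 0.303% for WT and 0.294% for KO. Of 13 B lymphoid genes, 1 had one in every library and 10 lacked one throughout, and Cd79b (percentiles 35.3 and 25.4) and Blnk (29.0 and 22.8), which encode parts of B cell receptor signalling, had one in the KO pair alone, against 0.294% of all genes. Whether cell makeup had a part in the values at the granulocyte genes was not tested.

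**Figure D5:**
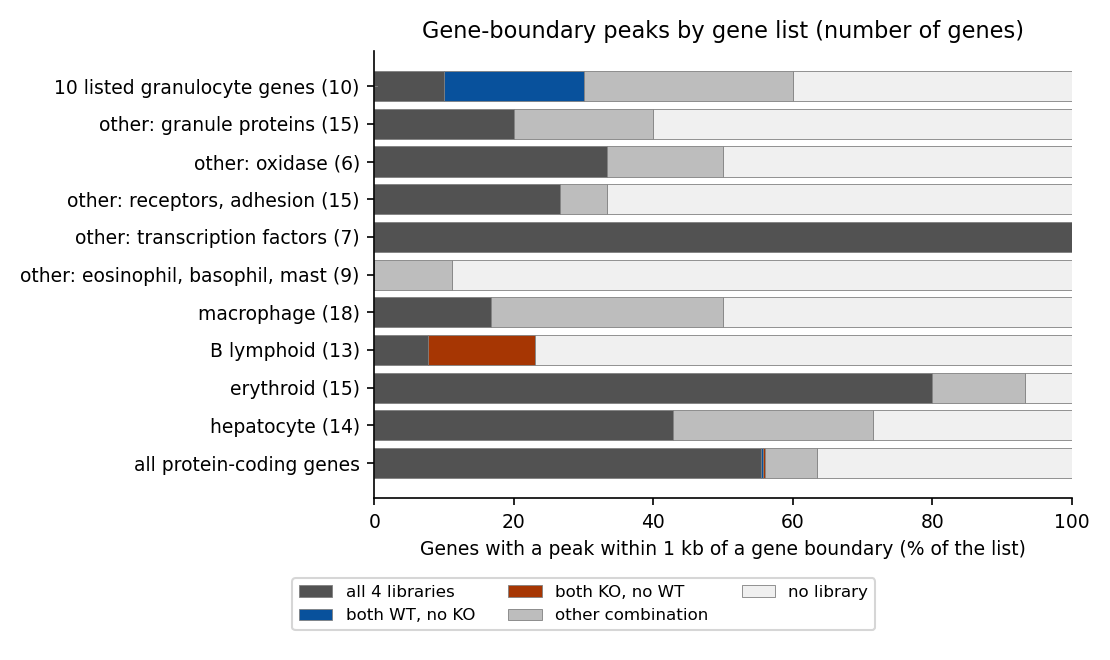
Share of genes (x axis, %) with a peak within 1 kb of a gene boundary in all 4 libraries, in both libraries of one genotype only, in another combination or in none, for each gene list (rows, number of genes in parentheses) and for all protein-coding genes. The 10 listed genes have 2 in WT alone, the other granulocyte lists 0, and the B lymphoid list 2 in Hemgn KO alone.

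Outside the 10 genes, 64 genes had their boundary peaks in the WT pair alone. Nearest to S100a8 in its 2 WT percentiles were Fam43b (44.6 and 22.1) and Mia2 (46.3 and 18.6). Nearest to Camp were Esm1 (4.8 and 18.6), Ank3 (7.2 and 23.9) and 4930467E23Rik (4.8 and 13.1). The likeness is the distance between 2 pairs of percentiles from 2 libraries.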

How the data were processed

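The data were 4 peak lists in the MACS2 narrowPeak layout, 1 per library. The submitters' processing notes name MACS2 2.2.7.1, Picard 2.21.4, SAMtools 1.9 and Bowtie2 2.3.5. What each tool did, its settings and the build were not given in the sources used here. Fold in the deposited lists is the authors' ratio of summit fragments to local background, each raised by 1; −log10 p and −log10 q are likewise deposited per peak, and the deposited score is 10 times the −log10 q. The highest q was 0.0489. Replicate numbers follow the labels, from which the peak names in the lists differ.

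Region coordinates come from the lists (first base 1). The RefSeq GRCm38.p6 gene table was used because 27.8% to 35.3% of summits fell at its gene boundaries (1 kb), against 6.66% to 7.31% when summits were moved by 5, 20 and 50 kb. Peaks sharing at least 1 bp were merged. Percentiles are ranks of fold within a list. Fragments and background were solved from fold and −log10 p under 300 (tolerance 0.001), which returned a solution for 100.0% of such peaks; the code was tested on simulated data. The height assumes alike settings in all libraries, and was chosen after the data were seen, as was the start-site window. The genes and lists were chosen with earlier results of these data known. Named are the 10 genes; of the other granulocyte genes those exclusive to a genotype and the 2 of highest mean percentile per group; of other lists the exclusive ones; and the 3 nearest in percentile to S100a8 and Camp, of which 1 is not reported here. Replicates are not said to be separate embryos, so p measures only the spread between these libraries. Python 3.11.15, NumPy 2.4.6, pandas 2.3.3 and SciPy 1.17.1 were used.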

Additional observations from a re-analysis of the deposited data

How the results depend on the processing

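S100a8 kept its boundary peak in both WT libraries and neither KO library under every alternative tried here, as far as its libraries remained, and Camp lost it in 3: at a fold of at least 4 no library had the peak (a difference of 0.0 libraries), and with lists of equal length by fold or by q 1.0 WT library did. Accordingly 1.0 region and 1.0 gene were exclusive to WT with the fold minimum of 4 and in both kinds of equal-length list, in place of 2. Regions exclusive to KO numbered 1.0 at a fold of at least 4, 1.0 in equal-length lists by fold and 2.0 by q, and genes 1.0 by q, in place of 0. Genes with a boundary peak in all libraries numbered 2.0 with a window of 2 kb and 2.0 with start sites, in place of 1. Leaving out 1 library at a time gave 6 to 10 regions in all libraries, 2.0 to 3.0 exclusive to WT and 0.0 to 4.0 to KO, 1.0 to 3.0 genes with a boundary peak in all libraries and 0.0 to 2.0 in KO alone, and 3.0 to 8.0 regions with WT percentiles above KO. A set of 3 libraries asks less of a region. The shares of all regions and genes with an exclusive call in shortened lists or sets of 3 libraries are not given here. The difference in other granulocyte genes with a boundary peak (KO minus WT) ran from -3.0 to 3.0 genes over these libraries, and with the replicate number as a block, the pairing by label number, it was 0.0 (exact sign-flip permutation p = 1.0, smallest possible 0.5). The other values were given no test, paired or unpaired. A peak absent from a list may lie under the lowest height callable there.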

Other observations

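The Cebpe region at 2.1 kb, singled out after its values were seen, was the third of 19997 regions by the lowest WT over the highest KO summit height, at 2.72. A region assigned to the chemokine gene Ccl17 (5.81) and one assigned to Asb3 (3.87) came before it. In all, 13 regions had a ratio over 2 in this direction and 13 in the other. None of these ratios was tested.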
